A study of Mus musculus with 26 samples.

Results

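The share of labelled mRNA that was still present after 6 h of chase was compared between oligodendrocytes (OLs) and oligodendrocyte progenitor cells (OPCs) of the mouse. OPCs were grown with the mitogens bFGF and PDGFA. OLs were obtained from OPCs in medium with noggin, IGF-1, cyclic AMP, NT3 and T3 (thyroid hormone), and took up label after 40 h in this medium. Both were 129S/SvEv cells in culture, the OPCs having been made from epiblast stem cells, and both were given 5-ethynyl uridine (5-EU, a uridine analogue that can be coupled to biotin) for 24 h before it was exchanged for uridine. OPCs had 3 replicates and OLs had 2, and a library at the start of the chase (0 h) and another at 6 h were used from each, 10 in all. The OLs were made from the cells of some of the OPC replicates, but which ones is not given, and the p-values below measure only the spread between these cultures.

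Of the 8177 transcripts listed for both cell types, 1 per gene, 6312 had at least 5 FPKM (a count of fragments corrected for transcript length and for library size) at 0 h in all 5 replicates, and these form the set described here. The 1865 others fell below that level in at least 1 replicate. At the edge of the set, Scaf4 entered with a lowest 0 h value of 5.00 FPKM and kept between 0% and 52.1% of its 0 h level, whereas Zfp398, left out with a lowest value of 4.995 FPKM, kept between 0% and 31.1%. Values are given on a pair of scales. On the spike-in scale the 6 h level, which the authors had scaled to labelled spike-in RNA, is given as a percent of the 0 h level of the same replicate. The relative share divides this ratio by the median ratio of that replicate over the 6312 transcripts, so that 1 (0 on the log2 scale) means kept as well as the median transcript.

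An mRNA pool that is no longer labelled falls as its molecules are degraded, and each mRNA has its own rate. Transcripts for ribosomal proteins, metabolic enzymes and secreted or membrane proteins are known as long-lived, while those of transcription factors, signalling inhibitors and immediate early genes are known as short-lived, many of them through AU-rich elements in the 3′ untranslated region (3′ UTR) that recruit the deadenylation machinery. OPCs divide and respond to growth factors, and OLs leave the cell cycle and make myelin.

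Markers of mature OLs at 0 h followed the labels, and those of progenitors did so only in part. Mbp (myelin basic protein) was at 3213 and 1295 FPKM in OL replicates 1 and 2 and at 1.19 to 3.99 FPKM in the OPCs, and Cnp (a myelin enzyme) at 1399 and 748 FPKM against 36.4 to 51.1. Olig1, a transcription factor of the whole lineage, was at 1009 to 1079 FPKM in OPCs and 635 and 506 in OLs. The progenitor marker Pdgfra was higher in the OLs (66.9 and 43.9 FPKM) than in the OPCs (11.5 to 26.5 FPKM), and so was Sox10, a transcription factor of the lineage (111 and 89.0 FPKM against 4.06 to 25.4). Cspg4, a progenitor proteoglycan, was higher in the OPCs (35.7 to 55.7 FPKM against 30.7 and 29.9), and Ptprz1 overlapped between the cell types. Gfap, an astrocyte marker, was at 6.86 and 8.12 FPKM in the OLs and Aldh1l1 at 1.72 and 2.44, both listed for OLs alone. Slc1a2, an astrocyte glutamate transporter, was at 77.4 and 95.7 FPKM in OLs against 22.9 to 37.0 in OPCs. The astrocyte marker Gja1 was at 40.1 FPKM in OL replicate 1, within the range of the OPCs, and at 188 FPKM in OL replicate 2. Aqp4, also of astrocytes, was listed for neither cell type. Of the neuron markers, Tubb3 was higher in the OLs (24.6 and 24.5 FPKM against 13.2 to 17.4) and Map2 overlapped. Syt1 was listed for OLs alone (3.06 and 1.38 FPKM), and Rbfox3, Snap25 and Stmn2 for neither cell type. The part of astrocytes and neurons in the results was not tested. The 10 astrocyte and neural stem transcripts of the set are given below. All 4 microglial, 3 endothelial and 4 pluripotency markers examined were absent from both tables.

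The median transcript was kept to 15.5%, 12.9% and 20.0% of its 0 h level in OPC replicates 1, 2 and 3, and to 34.5% and 43.2% in OL replicates 1 and 2. The means were 16.1% ± 3.58 (SD, n = 3) and 38.9% ± 6.14 (SD, n = 2), a difference of 22.8 percentage points. All values of the OLs lay above those of the OPCs, and the exact two-sided permutation p was 0.1, the smallest that 3 replicates against 2 can give. The transcripts also differed more among themselves in OPCs. The interquartile range of the log2 relative share was 2.35, 2.89 and 2.61 in OPCs against 1.64 and 1.48 in OLs (exact permutation p = 0.1). In bulk cultures such as these, a change in the mixture of cells and a change within each cell cannot be told apart.

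**Figure D1:**
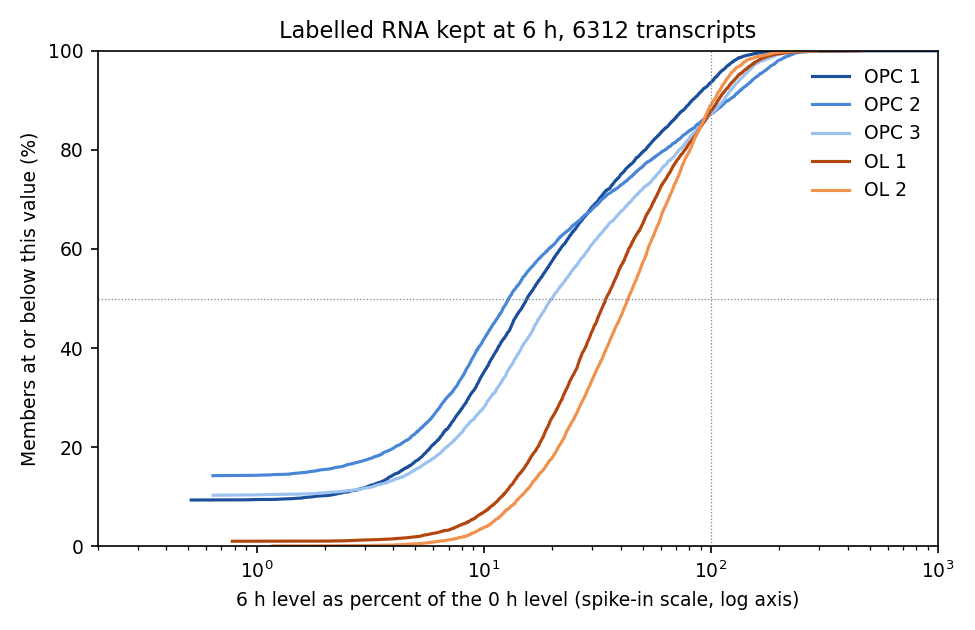
Cumulative share of the 6312 transcripts (vertical axis, %) whose 6 h level was at or below a given percent of the 0 h level (horizontal axis, spike-in scale, log axis), one line per replicate. The lines of the OPCs start at 9.33% to 14.2% because that share was listed at 0 FPKM, they lie to the left of both OL lines over most of the range, and all 5 come together near 100%.

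Values of 0 FPKM were mostly found in OPCs. Of the set, 9.33%, 14.2% and 10.3% were listed at 0 FPKM at 6 h in the OPC replicates, against 1.01% and 0.0634% in the OLs (exact permutation p = 0.1), and 209 transcripts were at 0 in all 3 OPC replicates, none of them in all 5. At the upper end the cell types overlapped. Here 6.40%, 12.7% and 12.8% of transcripts in OPCs and 12.2% and 10.9% in OLs had a 6 h level above their 0 h level. The 90th percentile was 82.6%, 120%, 114%, 107% and 103% in OPC replicates 1, 2 and 3 and OL replicates 1 and 2. A level above 100% cannot come from labelled RNA that was present at 0 h, so the spike-in scale sets an order among transcripts more firmly than an absolute share. One value, Tmem38b in OPC replicate 1, stood at 39639 FPKM at 6 h against 118 FPKM at 0 h, with 283 and 0 FPKM in the other OPC replicates, and was left in place; it lies beyond the axis of the cumulative plot.

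The order of transcripts was shared within a cell type more than between cell types. Spearman's correlation of the relative share across the 6312 transcripts was 0.789 to 0.809 between OPC replicates, 0.749 between the OL replicates and 0.634 to 0.684 between an OPC and an OL replicate. In each replicate the share kept rose with the 0 h level across transcripts, with a Spearman correlation of 0.438 to 0.469 in OPCs and of 0.375 and 0.385 in OLs. In the eighth of the set with the lowest 0 h level (5.93 to 11.5 FPKM on average) the medians were 9.38%, 6.5% and 10.4% in OPCs and 25.9% and 26.8% in OLs. In the highest eighth (83.9 FPKM or more) they were 66.8%, 102% and 94.5% in OPCs and 87.2% and 83.3% in OLs. The cell types were thus apart among transcripts of low level, and in the highest eighth their ranges overlapped.

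The relative share was then tested for each transcript with limma (log2 of relative share with a pseudocount of 1 FPKM, Benjamini-Hochberg adjusted over all 6312). It called 80 transcripts at an adjusted p under 0.05, 62 kept more in OLs (0.982% of those tested) and 18 kept less (0.285%). At an unadjusted p under 0.05 there were 1815, 508 kept more and 1307 kept less. The median difference over the set was -0.22 log2, with quartiles at -1.01 and 0.75. Both OL replicates lay above all 3 OPC replicates for 976 transcripts (15.5%) and below them for 2167 (34.3%). For the spike-in scale, each replicate's log2 median ratio was added back after the pseudocount. All differences then moved up by 1.28 log2, and limma called 472 kept more in OLs and 1 kept less. With the median taken over transcripts of at least 20 FPKM the split was 92 and 12, with a pseudocount of 3 FPKM it was 68 and 73, and with an interaction term over the 10 libraries it was 158 and 222. All lower values below are therefore lower relative to the median transcript. No transcript was called when either OL replicate was left out.

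**Figure D2:**
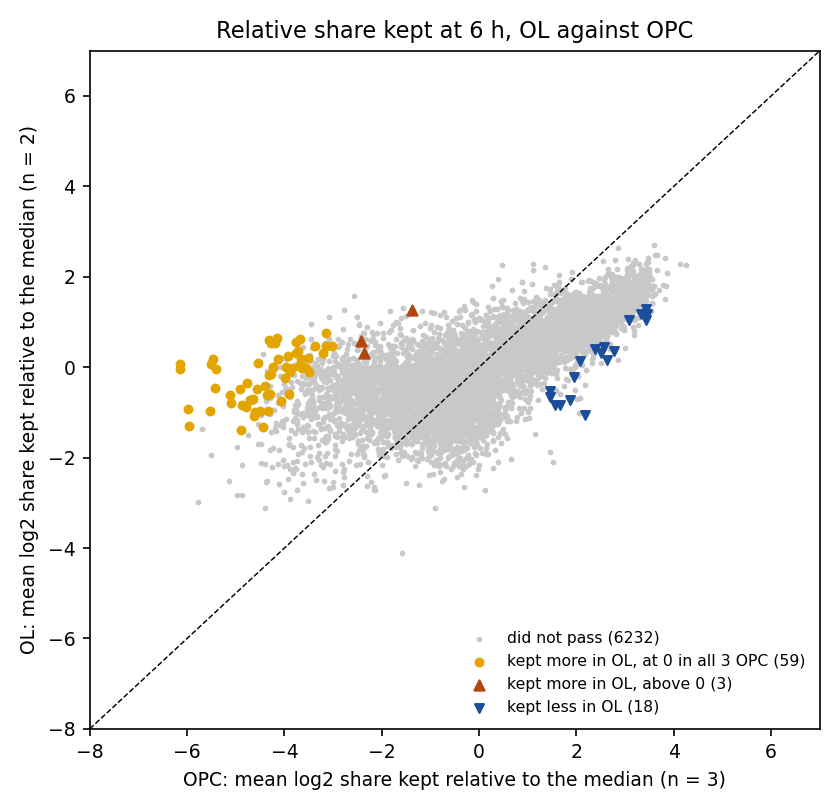
Mean log2 share kept relative to the median in OPCs (horizontal, n = 3) against OLs (vertical, n = 2), 1 point per transcript, with the line of equality dashed. Of the called transcripts, the 18 kept less in OLs lie at the right below the line, 3 kept more lie at the left above it, and the other 59 lie farther left, where all 3 OPC replicates were listed at 0 FPKM.

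Fgfr3, a receptor for fibroblast growth factors, was kept to 3.67%, 2.39% and 2.59% in OPC replicates 1, 2 and 3 and to 49.4% and 47.3% in OL replicates 1 and 2. Its relative share was between 0.130 and 0.237 in OPCs and was 1.43 and 1.09 in OLs, a difference of 2.68 ± 0.38 log2 (SE, limma adjusted p = 0.0403). In OPCs it was thus kept far less than the median transcript, and in OLs it was kept about as well as the median transcript. Zswim8, a subunit of a ubiquitin ligase that acts on Argonaute proteins during target-directed microRNA decay, was kept to 2.00%, 1.74% and 4.72% in OPCs and to 68.0% and 50.5% in OLs (3.01 ± 0.47 log2, limma adjusted p = 0.0437). Sft2d1, a membrane protein with a proposed part in vesicle transport, was kept to 7.31%, 5.18% and 5.26% in OPCs and to 88.8% and 99.0% in OLs (2.64 ± 0.39 log2, limma adjusted p = 0.0424). For these 3 the groups were far apart on both scales, and limma also called them on the spike-in scale and when each transcript was set against the median of transcripts of like 0 h level. None of the 3 was called without OPC replicate 2 or 3, without a variance trend, without the filter on the 0 h level or for 6 h over 1 h, with adjusted p from 0.0505 to 0.0725 in limma. Division of each replicate's values by their interquartile range ended these calls and all others. Limma's adjusted p was then 0.055 for Fgfr3 and Sft2d1 and 0.0609 for Zswim8. Zswim8 was also not called without OPC replicate 1 (limma adjusted p = 0.0606). At 4 h over 0 h the difference of Fgfr3 was 2.56 log2 (limma adjusted p = 0.0224), that of Zswim8 1.29 (0.0636) and that of Sft2d1 0.67 (0.288). They were named after their values were seen, as the only transcripts called kept more in OLs in this fit that were above 0 FPKM in every library.

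For the other 59 kept more in OLs, all 3 OPC replicates were listed at 0 FPKM at 6 h. They had 5.30 to 84.6 FPKM at 0 h in OPCs and kept between 7.90% and 83.2% in OLs. Their difference is set by the pseudocount and the 0 h level, so no fold is given. The 12 with the largest differences were Schip1, Eif3g, Polr2j, Ppp1r35, Nsmce4a, Rgcc, Lsm8, Rhbdd3, Clcc1, Fdx1, Surf1 and Polr1c. Several have uses in every cell, such as Eif3g (translation initiation factor 3), Polr2j (RNA polymerase II), Lsm8 (the nuclear Lsm ring that binds U6 RNA), Polr1c (RNA polymerases I and III), Surf1 (assembly of cytochrome c oxidase) and Fdx1 (mitochondrial ferredoxin). An exact 0 for such genes can be a failed estimate as well as a loss.

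The course before 6 h differed among them. Polr1c was low before the end, with 68.4, 52.5 and 64.7 FPKM at 0 h and 6.73, 0 and 1.94 FPKM at 4 h in OPC replicates 1, 2 and 3, before all 3 were at 0. Rgcc, a regulator of the cell cycle and of complement responses, was at 82.9, 62.8 and 46.2 FPKM at 0 h and at 0, 0 and 10.2 FPKM at 4 h. Eif3g, in contrast, was still at 47.1, 16.5 and 42.4 FPKM at 4 h (75.1, 57.0 and 78.1 FPKM at 0 h) and at 0 at 6 h. Polr2j and Lsm8 were also above 13 FPKM in every OPC replicate at 4 h. Counted over the 59, 26 were above 0 at 4 h in all 3 OPC replicates, 20 were at 0 in 1, 12 in 2 and 1 in all 3. In the OLs at 6 h Eif3g stood at 10.0 and 22.7 FPKM and Polr1c at 5.99 and 5.05 FPKM.

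**Figure D3:**
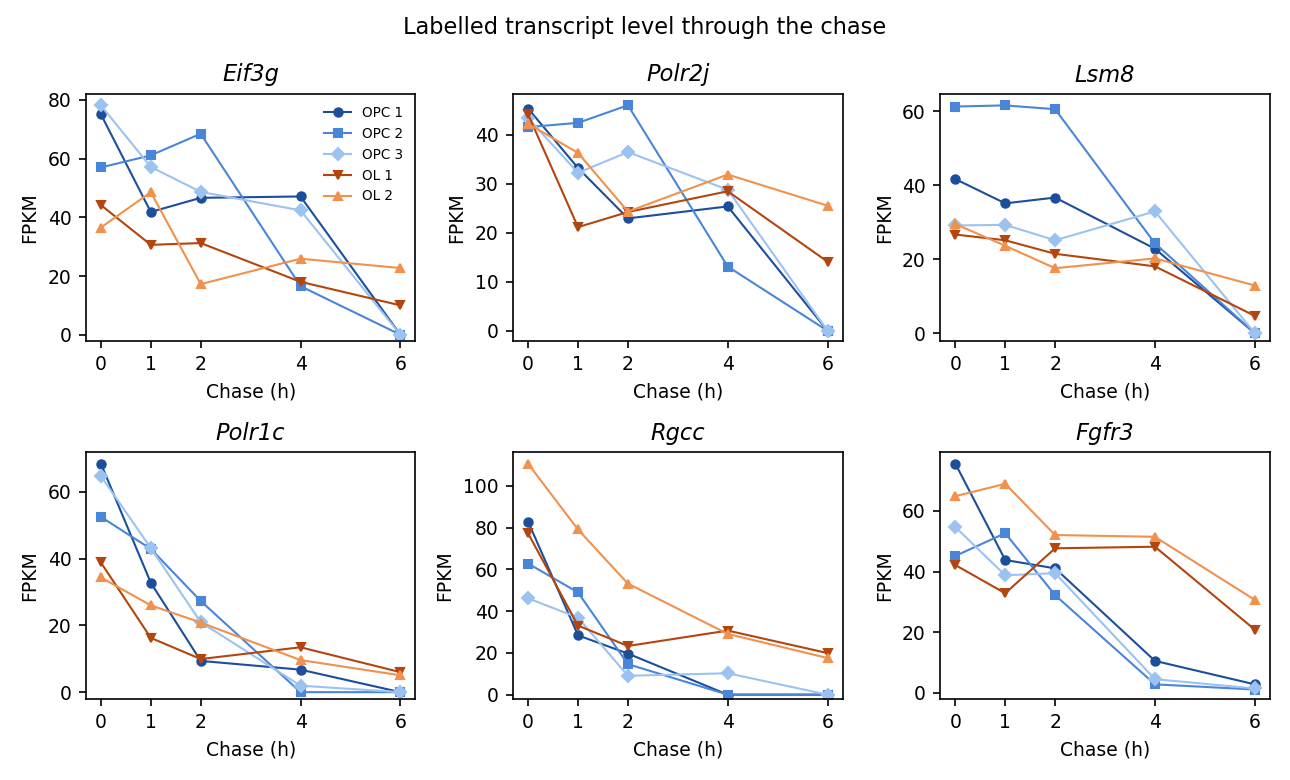
FPKM (vertical) against hours of chase (horizontal) for 5 transcripts listed at 0 in all OPC replicates at 6 h and for Fgfr3, 1 line per replicate. Polr1c, Rgcc and Fgfr3 are already near 0 to 10.5 FPKM at 4 h in OPCs, whereas Eif3g, Polr2j and Lsm8 are well above 0 at 4 h and at 0 at 6 h.

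All 18 transcripts kept less in OLs were above 0 in every library, lay above the median 0 h level of the set, and were below all OPC replicates in both OL replicates on both scales. In OPCs they were among the well kept, with mean shares from 44.6% to 177%. The largest difference was that of Pbk, a kinase of mitosis, which was kept to 55.2%, 89.0% and 76.2% in OPCs and to 22.7% and 11.6% in OLs (-3.24 ± 0.48 log2, limma adjusted p = 0.0424). Its 0 h level was also lower in OLs, at 25.6 and 8.99 FPKM against 96.9 to 131 FPKM in OPCs. Lmnb1 (lamin B1 of the nuclear envelope) was kept to 36%, 47.3% and 61.6% in OPCs and to 22.9% and 19.4% in OLs.

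RNA-binding proteins made up a visible part of the 18, a grouping made after the calls were known. Elavl1, which binds AU-rich elements, was kept to 41.4%, 56.6% and 56.8% in OPCs and to 18.6% and 24.6% in OLs (-2.51 ± 0.36 log2, limma adjusted p = 0.0416). Msi2, a translational regulator of progenitor cells, was kept to 106%, 96.4% and 133% against 45.9% and 53.1% (-2.43 ± 0.33 log2, limma adjusted p = 0.0379). The hnRNP transcripts Hnrnpa2b1, Hnrnpa3 and Hnrnpu, whose proteins package and process pre-mRNA, differed by -2.16, -2.15 and -1.92 log2. Hnrnpa3 was kept to 155%, 152% and 178% against 67.4% and 115%, and Hnrnpu to 70.2%, 48.2% and 89.6% against 38.9% and 46.9%. Hnrnpa2b1 was kept to 152%, 158% and 214% in OPCs and to 83.0% and 106% in OLs, that is, well in both.

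The next group, chromatin proteins, included Set, a histone chaperone (-2.46 log2), Nucks1, a nuclear DNA-binding protein (-2.16 log2), and Hdac2, a histone deacetylase (-2.12 log2). Set was kept to 81%, 90% and 130% in OPCs and to 34.2% and 54.6% in OLs, and Nucks1 to 47.6%, 56% and 87.1% against 29.7% and 37.3%. Hdac2 was kept to 36%, 43.2% and 55.1% in OPCs and to 19.7% and 30.1% in OLs. In the endoplasmic reticulum, the chaperone Hsp90b1 and the disulfide isomerases Pdia3 and Pdia4 differed by -2.39, -2.27 and -2.18 log2. Hsp90b1 was kept to 203%, 124% and 204% in OPCs and to 55.0% and 116% in OLs, so that its OL replicates were far apart. Pdia3 was kept to 152%, 166% and 213% against 66.8% and 116%, and Pdia4 to 69.4%, 88.2% and 121% against 37.5% and 62.4%. The others were the kinase Map3k12 (-2.59 log2), the actin-nucleating subunit Actr2 (-2.03 log2), the microtubule protein Map2 (-1.98 log2) and the phosphatase Impad1 (-1.97 log2). Map3k12 was kept to 59.4%, 58.3% and 59.1% in OPCs and to 19.3% and 26.9% in OLs, but its course was not monotonic. In OPC replicates 1, 2 and 3 it was at 1.09, 0.863 and 0.763 FPKM at 4 h and at 14.1, 23.2 and 19.9 FPKM at 6 h, and its difference for 4 h over 0 h was 0.97 log2 (limma adjusted p = 0.132). Several others of the 18 rose above their 0 h level at 4 h in OPCs. Msi2 rose from 33.1, 80.3 and 58.4 FPKM at 0 h to 82.5, 96.5 and 95.2 FPKM at 4 h. At 6 h it was at 35.1, 77.4 and 77.4 FPKM. Pdia3 rose from 131, 139 and 118 to 257, 174 and 278 FPKM, with 200, 231 and 251 FPKM at 6 h. Elavl1 and Hdac2 lay below their 0 h level at 4 h in each OPC replicate. Actr2 was kept to 115%, 131% and 162% against 81.9% and 77.9%. Map2 was kept to 42.6%, 34.9% and 56.3% against 20.7% and 34.3%, and Impad1 to 71.7%, 67.1% and 122% against 48.6% and 54.5%. None of the 18 was called when set against transcripts of like 0 h level, and of the 18 only Pbk was called on the spike-in scale. Against transcripts of like level the differences ran from -2.66 log2 for Map3k12 (limma adjusted p = 0.0556) to -0.16 log2 for Lmnb1 (0.792). None of the 18 was called when each replicate's values were divided by their interquartile range.

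**Figure D4:**
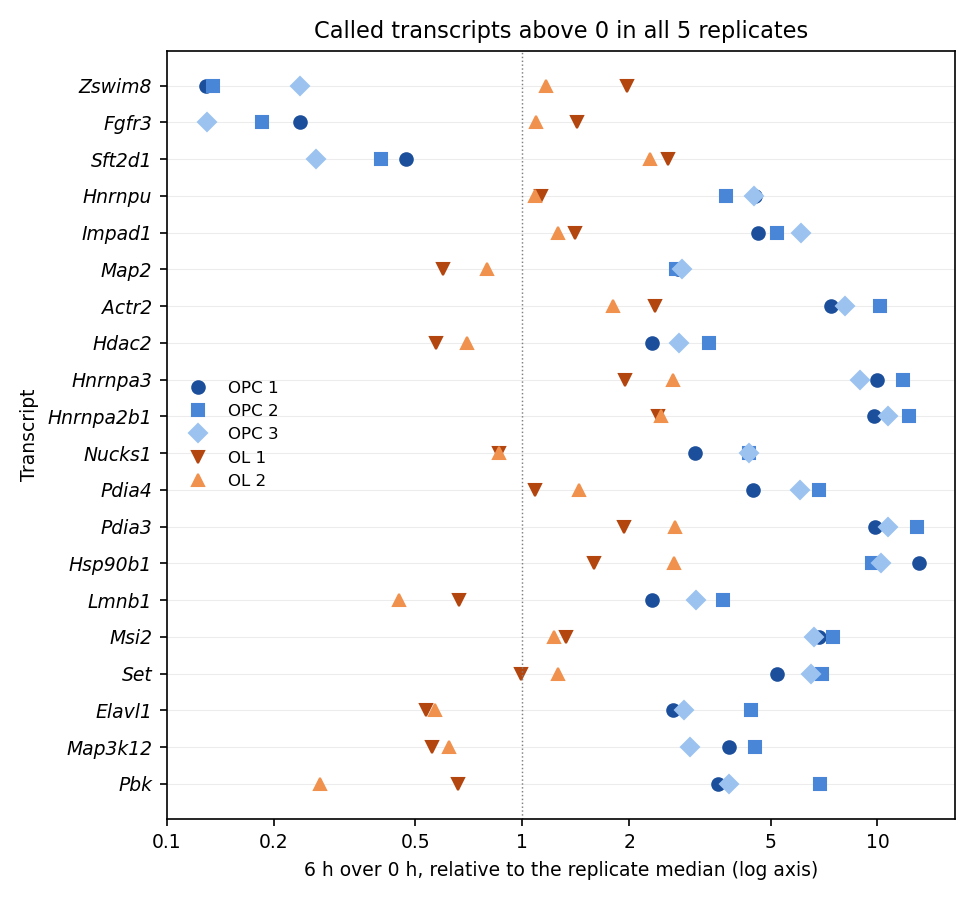
Ratio of 6 h to 0 h level relative to the replicate's median (horizontal, log axis, dotted line at 1) for 20 called transcripts that were above 0 FPKM in all 5 replicates, with 1 symbol per replicate. For the 3 at the top both OL symbols lie right of the OPC symbols, and for the 17 below them both lie left.

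When the 4992 transcripts above 0 FPKM at 6 h in every replicate were fitted alone, limma called 97 kept more in OLs (1.94% of those tested) and 237 kept less (4.75%), including all 21 calls above 0 of the fit over the whole set. This selection uses the 6 h values themselves and removes mostly transcripts at 0 in OPCs, so the split between the directions is partly set by it. The extremes of this fit, chosen here after their values were seen, were Crot, Med12, Slc20a1 and Cdkn1a among those kept more, besides the 3 already given. Cdkn1a, the inhibitor p21 of cyclin-dependent kinases, was kept to 5.86%, 3.04% and 8.16% in OPCs and to 48.1% and 70.4% in OLs (2.42 ± 0.42 log2, limma adjusted p = 0.00459). Crot, a carnitine acyltransferase of peroxisomes, was kept to 8.25%, 1.48% and 2.86% against 65.8% and 68.1% (3.05 ± 0.54 log2, limma adjusted p = 0.00459). Fgfr1, a second FGF receptor, was kept to 9.88%, 7.19% and 12.9% against 86% and 84.4% (2.05 ± 0.44 log2, limma adjusted p = 0.0151). In the fit over all 6312 transcripts limma's adjusted p was 0.0710 for Fgfr1 and 0.0518 for Cdkn1a, and Crot, Med12 and Slc20a1 were not called there either.

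At the other end of the same fit was Top2a, the topoisomerase of dividing cells, kept to 48.7%, 34% and 51.6% in OPCs and to 18.3% and 3.20% in OLs (-3.01 ± 0.49 log2, limma adjusted p = 0.00166). Pclaf, a partner of PCNA, was kept to 56%, 74.6% and 64.9% against 18.5% and 26.5% (-2.41 ± 0.48 log2, limma adjusted p = 0.00841). Gpr17, a receptor that marks cells committed to differentiate, was kept to 29.1%, 18.1% and 18.6% against 11.1% and 7.06% (-2.28 ± 0.48 log2, limma adjusted p = 0.0135). Gpr17 was near the 5 FPKM limit in OPCs (5.00 to 6.61 FPKM at 0 h) and at 323 and 299 FPKM in OLs. Top2a, Pclaf and Gpr17 were not called in the fit over the whole set.

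Groups of genes were then described by lists. For each list, the number of members on 1 side in both OL replicates is read against 15.5% above and 34.3% below in the whole set, and the median difference against -0.22 log2. The first lists are of housekeeping genes. Of 82 cytosolic ribosomal protein transcripts, 81 were lower in both OL replicates and 0 were called, while 7 (Rpl29, Rps28 and 5 others) were called lower in the fit of transcripts above 0, where 4.75% of all transcripts were. Their medians were 110%, 183% and 132% in OPCs and 108% and 112% in OLs, so that on the spike-in scale they were at or above their 0 h level in both cell types. The median difference was -1.61 log2, it was -0.32 log2 on the spike-in scale, and it was -0.12 log2 against transcripts of like 0 h level. Rpl29 had the lowest difference, kept to 145%, 170% and 200% in OPCs and to 106% and 94.7% in OLs, and Rpl7l1, a homologue of a ribosomal protein, the highest, kept to 7.27%, 9.89% and 11.9% against 13.5% and 26.3%.

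Oxidative phosphorylation (nuclear genes) had 72 of 76 members lower in both OL replicates, with medians of 108%, 176% and 133% in OPCs and 130% and 110% in OLs, and a median difference of -1.44 log2 that was -0.15 log2 on the spike-in scale. For glycolysis and the TCA cycle it was 30 of 34, with a median of -1.29 log2 that vanished on the spike-in scale (-0.0016 log2). Its members Suclg2 and Idh2, mitochondrial enzymes, were kept to more than 100% in all 5 replicates, and Hk1, the hexokinase that starts glycolysis, went the other way, with 22.8%, 8.35% and 16.9% in OPCs and 68.3% and 92.1% in OLs. Mitochondrial ribosomal proteins had 27 of 70 lower (near the share of the whole set), 8 higher and medians of 25.8%, 28.8% and 25.8% in OPCs against 37.9% and 58.8% in OLs. No member of these 3 lists was called in the fit over the whole set. In the fit of transcripts above 0 in every replicate, 9 of 75 oxidative phosphorylation, 2 of 34 glycolysis and TCA cycle (Suclg2 and Idh2) and 5 of 50 mitochondrial ribosomal transcripts were called lower and 0 higher, against 4.75% and 1.94% of all transcripts in that fit. Against transcripts of like 0 h level the median differences of these 3 lists were -0.31, -0.08 and -0.10 log2.

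The secretory and degradative compartments were also well kept. In the lysosome and V-ATPase list 30 of 44 were lower in both OL replicates and 5 higher, with medians of 69.0%, 97.7% and 97.1% in OPCs and 103% and 88.4% in OLs. Its median difference of -1.17 log2 was 0.11 log2 on the spike-in scale and -0.93 log2 against transcripts of like 0 h level. Glb1 (beta-galactosidase) was kept to 37.0%, 45.3% and 70.2% against 23.0% and 28.3%, and Galc, which degrades a myelin lipid, to 181%, 130% and 126% against 79.9% and 86.4%. In the fit of transcripts above 0, Glb1 was called lower and a pair of V-ATPase subunits, named after their values were seen, were called higher. Atp6v1b2 was kept to 8.75%, 8.69% and 6.04% in OPCs and to 52% and 66.6% in OLs, and Atp6v1c1 to 16.6%, 10.5% and 7.08% against 70.6% and 89.3%. In the ER and Golgi list 53 of 86 were lower, 5 higher and 3 called lower (Hsp90b1, Pdia3 and Pdia4), with a median of -0.94 log2 that turned to 0.34 log2 on the spike-in scale. In the fit of transcripts above 0 in every replicate, 16 of its 83 members were called lower and 1, Sec23b, higher, against 4.75% and 1.94% of all transcripts there. Against transcripts of like 0 h level its median was -0.10 log2. Proteasome subunits had 23 of 43 lower and 3 higher (median -0.98 log2, -0.55 without OL replicate 1, -0.10 against transcripts of like 0 h level and 0.31 on the spike-in scale).

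Extracellular matrix, integrin and protease transcripts had 18 of 30 lower and 1 higher (median -0.95 log2, turning to 0.33 on the spike-in scale), and adhesion and guidance transcripts 21 of 44 lower and 4 higher (-0.79 log2, -0.33 without OL replicate 2, turning to 0.49 on the spike-in scale). Both medians were also below 0 against transcripts of like 0 h level, at -0.70 and -0.83 log2. Vcan, the proteoglycan versican, was kept to 67.5%, 47.9% and 76.7% in OPCs and to 45.0% and 31.6% in OLs. Ncam1, the neural cell adhesion molecule, was kept to 127%, 137% and 243% against 112% and 93.5%. Plxna1, a semaphorin receptor, went the other way, from 1.68%, 4.00% and 8.91% in OPCs to 45.7% and 40.7% in OLs.

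**Figure D5:**
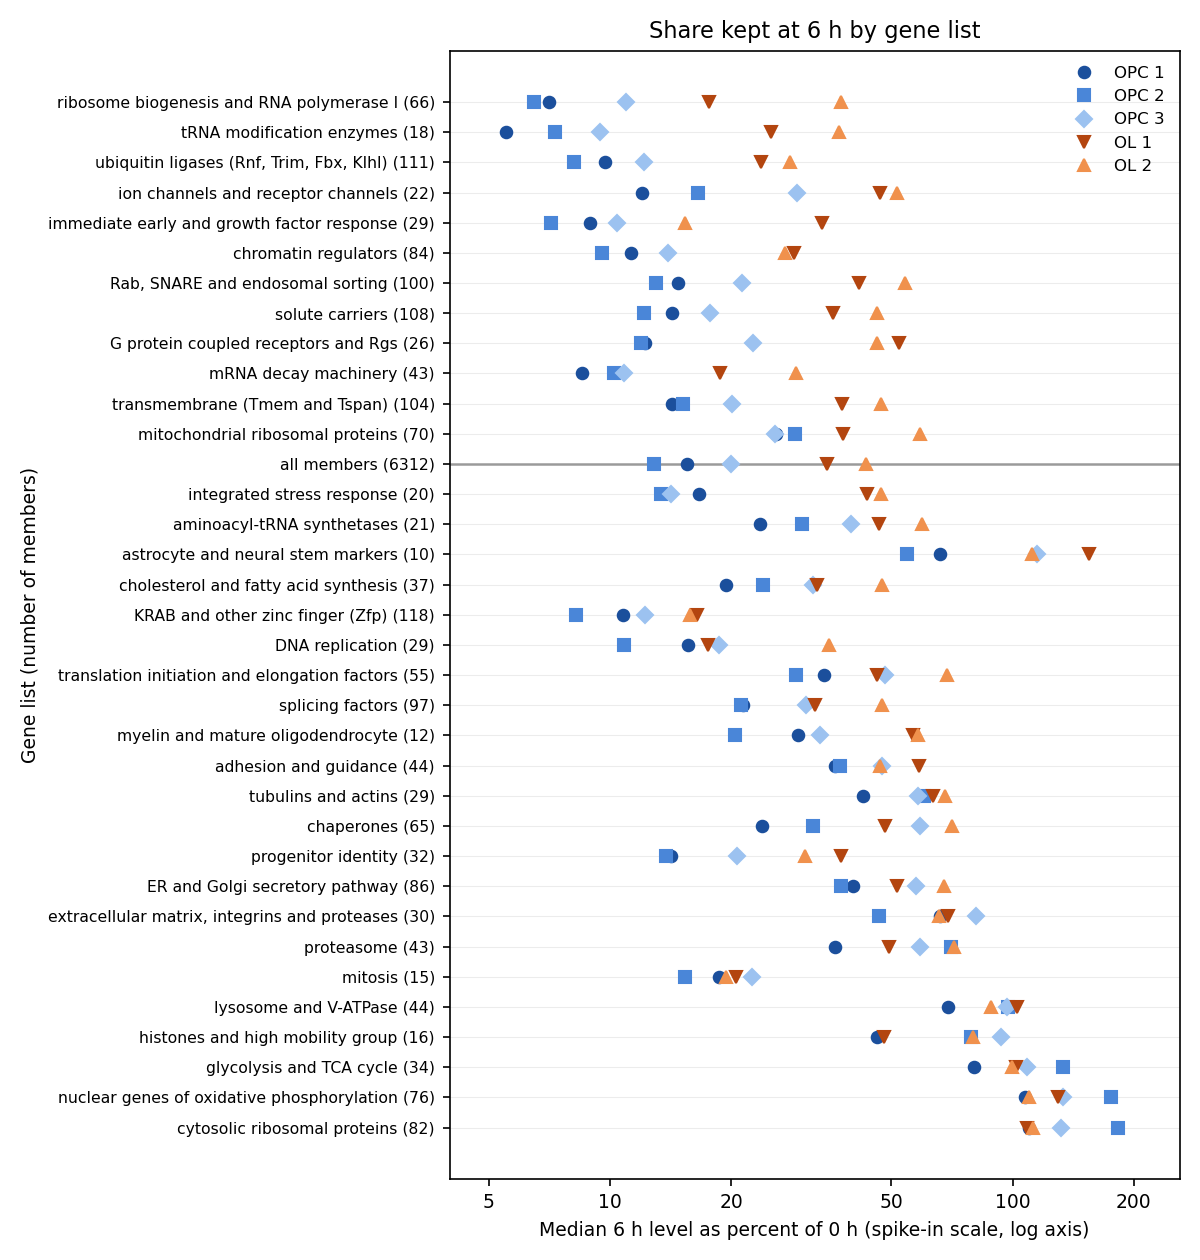
Median percent of the 0 h level kept at 6 h (spike-in scale, log axis) in each gene list of at least 10 members, 1 symbol per replicate, ordered by the median difference between cell types, with all 6312 transcripts on the grey line. The OPC and OL symbols overlap in the best kept lists at the bottom, near or above 100%, and lie apart in the poorly kept lists at the top, such as ribosome biogenesis.

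Several lists of poorly kept transcripts were described next. Ribosome biogenesis and RNA polymerase I transcripts had medians of 7.07%, 6.49% and 11% in OPCs and 17.6% and 37.5% in OLs. Of 66 members, 16 were higher and 15 lower in both OL replicates, and 4 were called higher (Utp4, Rrp9, Polr1c and Nol9), all of them listed at 0 in the OPCs. The median difference was 0.65 log2, it stayed above 0 with every scaling tried, it was 0.32 log2 without OL replicate 2, and it was 0.0891 log2 among the 41 members above 0 in every replicate. Ncl (nucleolin) and Fbl (fibrillarin), abundant nucleolar proteins, lay at the other end, with 100%, 50.7% and 106% against 32.6% and 58.9% for Ncl.

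Enzymes of tRNA modification, a list taken from the genes examined in the study, had 6 of 18 higher in both OL replicates and 1 lower, with medians of 5.54%, 7.30% and 9.47% in OPCs and 25.1% and 37.0% in OLs (median difference 0.43 log2, and 0.21 log2 without OL replicate 2). Elp6, of the Elongator complex that modifies wobble uridines, was the only 1 called and was listed at 0 in the OPCs, with 26.8% and 26.5% kept in OLs. Trmt112, a partner of several methyltransferases, was the member lower in both OL replicates relative to the median transcript, with spike-in shares of 32.1%, 27.6% and 46.1% against 62.1% and 47.5%.

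Zinc finger (Zfp) transcripts were poorly kept in both cell types, at 10.8%, 8.24% and 12.2% in OPCs and at 16.5% and 15.8% in OLs, with 48 of 118 lower and 11 higher (median -0.58 log2, turning to 0.71 on the spike-in scale, to 0.36 for 4 h over 0 h and to just above 0 among the 13 with at least 20 FPKM). Chromatin regulators had 16 of 84 higher and 18 lower (0.0854 log2), ubiquitin ligases 20 of 111 higher and 27 lower (0.16 log2), and the mRNA decay machinery 6 of 43 higher and 13 lower (-0.0359 log2). These 3 medians were close to 0 and turned sign with at least 1 other scaling. Splicing factors had 44 of 97 lower and 12 higher, with 3 called lower and 3 called higher (median -0.68 log2, turning to 0.61 on the spike-in scale). All 3 called higher (Lsm8, Clk1 and Rbm10) were listed at 0 in the OPCs, and in the fit of transcripts above 0 there were 12 of 82 called lower and 1 higher, against 4.75% and 1.94% of all transcripts there. In that fit 8 of 56 chaperones were called lower and 0 higher. Translation factors had 28 of 55 lower and 7 higher, with Eif3g called higher (-0.67 log2, turning to 0.61), and chaperones 34 of 65 lower and 6 higher (-0.87 log2, turning to 0.41). Against transcripts of like 0 h level these 3 medians were -0.09, 0.13 and -0.08 log2.

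In the cell cycle lists, 12 of 15 mitosis transcripts were lower in both OL replicates and 0 higher, with Lmnb1 called. The medians were 18.7%, 15.4% and 22.5% in OPCs and 20.6% and 19.4% in OLs, ranges that overlapped on the spike-in scale, where those of the median transcript did not (median difference -1.05 log2, turning to 0.23 on the spike-in scale and to 0.26 against transcripts of like 0 h level). DNA replication transcripts had 12 of 29 lower and 3 higher. Their median difference was -0.58 log2, and -0.22 log2 without OL replicate 1. It turned to 0.70 log2 on the spike-in scale and to 0.52 log2 against transcripts of like 0 h level. Mcm2, of the replicative helicase, was kept to 22.2%, 31.8% and 62.4% in OPCs and to 7.15% and 19.9% in OLs, and Mcm6, of the same complex and named because it was 1 of 2 transcripts at 0 in both OL replicates, to 15.6%, 4.94% and 7.37% in OPCs while it was listed at 0 in both OL replicates. Orc6, of the origin recognition complex, was at 4.51%, 0% and 0% in OPCs and at 34.2% and 47.2% in OLs.

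Among 32 transcripts of progenitor identity, 17 were lower in both OL replicates, 0 were higher and 0 were called. The list's medians were 14.2%, 13.8% and 20.7% in OPCs and 37.4% and 30.5% in OLs, a median difference of -0.93 log2 that was -0.20 log2 against transcripts of like 0 h level, 0.36 log2 on the spike-in scale and 0.0239 log2 at 4 h. In the fit of transcripts above 0 in every replicate, 3 of the 32 were called lower (Ptprz1, Cd9 and Vcan). Ptprz1, a receptor phosphatase, was kept to 168%, 148% and 183% in OPCs and to 110% and 67.4% in OLs (-2.22 log2 in the fit over the whole set and -1.95 in the other), and Cd9, a tetraspanin, to 107%, 228% and 100% against 96.5% and 83.5% (-1.84 and -1.57 log2). Of the Sox transcription factors, Sox8 was kept to 7.56%, 8.70% and 12% in OPCs and to 9.95% and 4.41% in OLs, and Sox4 to 16.0%, 14.6% and 19.0% against 14.6% and 14.5%. Sox2 had 16.2%, 12% and 13.2% against 16.2% and 14.3%, and Sox3 12.7%, 12.5% and 11.2% against 65.1% and 31.1%. Pdgfra, the PDGF receptor, was kept to 6.97%, 1.03% and 8.22% in OPCs and to 21.6% and 13.9% in OLs, with relative shares that overlapped.

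Most transcripts of mature OLs were under 5 FPKM in OPCs or not listed there, so only 12 entered the myelin list, of which 5 were lower in both OL replicates, 1 higher and 0 called (median -0.72 log2, turning to 0.56 on the spike-in scale). This median was -1.65 log2 against transcripts of like 0 h level and -0.23 log2 without OL replicate 2, and 1 member, Gpr17, was called lower in the fit of transcripts above 0. Cnp was kept to 68.6%, 93.0% and 95.2% in OPCs and to 113% and 85.1% in OLs. Sirt2, a deacetylase of myelin, had 106%, 75.1% and 115% against 206% and 191%. Car2, the carbonic anhydrase of OLs, was kept to 56.5%, 22.9% and 34.4% in OPCs and to 130% and 240% in OLs, and was the member higher in both. The cholesterol and fatty acid list had 12 of 37 lower and 1 higher. That member was Srebf1, the regulator of lipid synthesis, with 5.41%, 2.46% and 9.64% against 28.6% and 34.8%.

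The 29 immediate early and growth factor response transcripts had medians of 8.92%, 7.13% and 10.4% in OPCs and 33.7% and 15.4% in OLs. Of them 4 were higher in both OL replicates, 6 lower and 0 called, and 1, Mycl, was called lower in the fit of transcripts above 0. The median difference of 0.0863 log2 was 1.27 log2 at 4 h, -0.53 log2 without OL replicate 1 and 0.70 log2 without OL replicate 2. The OL replicates were far apart for several members. Ier5 was kept to 81.0% in OL replicate 1 and 14.2% in replicate 2, and Jun to 63.8% and 18%, against 8.39% to 11.5% and 14.3% to 16.2% in OPCs. Mycl, of the Myc family, had the lowest difference, with 9.87%, 16.2% and 12% in OPCs and 6.54% and 4.97% in OLs. Nr4a1 and Egr1 had the highest, each listed at 0 in 2 OPC replicates, with 52.3% and 177% for Nr4a1 and 91.8% and 13.8% for Egr1 in the OLs.

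Of these 29, 5 held the AU-rich nonamer TTATTTATT in the 3′ UTR, which is shown here because it is a known element of unstable mRNAs of this class. The stretches below are from GRCm38 (GENCODE M21 transcripts, transcript strand 5′ to 3′), with the first nonamer of each in capitals. They lie in the 3′ UTRs of Dusp1 (chr17:26506159-26506187, minus strand), Plk2 (chr13:110400734-110400762, plus), Srf (chr17:46549021-46549049, minus), Zfp36l1 (chr12:80108167-80108195, minus) and Zfp36l2 (chr17:84184914-84184942, minus).
Dusp1: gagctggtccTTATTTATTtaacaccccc
Plk2: aataaactttTTATTTATTacagccccaa
Srf: acggcaccacTTATTTATTgttgcctttt
Zfp36l1: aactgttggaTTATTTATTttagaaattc
Zfp36l2: actatttaacTTATTTATTatcttgtgaa

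Dusp1, a MAP kinase phosphatase, was kept to 10.3%, 5.5% and 0% in OPCs and to 67.9% and 14.9% in OLs, and Plk2, a kinase, to 6.42%, 3.75% and 8.62% against 40.6% and 23.5%. Srf, a transcription factor of immediate early genes, was kept to 4.40%, 8.95% and 7.85% against 37.2% and 10.4%. Zfp36l1, which itself binds AU-rich elements, was kept to 7.38%, 7.13% and 10.4% against 16.1% and 21%, and its homologue Zfp36l2 to 13.5%, 10.4% and 17.5% against 48.7% and 16.4%. All 5 were kept less than the median transcript in each OPC replicate, but so was the median of the other 24 of the list, at 9.09%, 6.33% and 11.7%, against 7.38%, 7.13% and 8.62% for the 5. Over the whole set, searched on the transcript strand, 412 transcripts (6.57% of those with a 3′ UTR) held the nonamer. They were kept to 13.1%, 10.3% and 15.6% in OPCs and to 25.9% and 30.8% in OLs, against 15.9%, 13.3% and 20.6% and 35.6% and 44.4% in the 5855 without it. The median difference between cell types was -0.22 and -0.23 log2 with and without the nonamer, and the medians of the cell types' own mean log2 shares were -0.37 in OPCs and -0.44 in OLs with it, against -0.14 and -0.01 without it. The median percent kept was lower with the nonamer in each replicate, and whether the cell types differ in this was not tested.

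Other features of the mRNA were related to the share kept across transcripts, as descriptions without a test. Longer 3′ UTRs went with a lower share in each replicate, with a Spearman correlation of -0.093 to -0.115 in OPCs and of -0.264 and -0.303 in OLs (6267 transcripts). For coding length it was -0.209 to -0.267 in OPCs and -0.170 and -0.301 in OLs (6303 transcripts). The share of G or C at the third codon position had correlations of 0.020 to 0.034 in OPCs and 0.007 in OL replicate 2, but 0.267 in OL replicate 1. The UUU share of phenylalanine codons followed this, at -0.196 in OL replicate 1 and -0.005 in OL replicate 2, and so did the AAA share of lysine codons, at -0.237 and -0.026. Base composition thus set OL replicate 1 apart from the other 4 replicates, and its part in the differences above was not tested.

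Transcripts of other cell types were few. The 10 astrocyte and neural stem transcripts had medians of 66.1%, 54.6% and 115% in OPCs and 154% and 112% in OLs, with 4 lower in both OL replicates, 1 higher (Fgfr3) and a median difference of -0.49 log2 that was -0.27 log2 without OL replicate 2 and turned to 0.79 on the spike-in scale. Nes (nestin) was kept to 96.7%, 55.5% and 118% against 54.4% and 83.5%, and Gja1, a gap junction protein, to 45.2%, 40.3% and 72.5% against 163% and 99.5%. Gja1 had a 0 h level of 40.1 FPKM in OL replicate 1 and 188 FPKM in replicate 2. Of the 3 neuronal transcripts, Map2 was called, and Gap43 and Tubb3 overlapped between the cell types. Map2 is also expressed in OPCs (64.4 to 170 FPKM at 0 h).

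Solute carriers, transmembrane proteins, Rab and SNARE proteins, ion channels and G protein coupled receptors lay near the median transcript in both cell types, with median differences from -0.0783 to 0.12 log2. Of 108 solute carriers, 18 were higher and 32 lower, and the called members were Slc25a28 and Slc25a33, mitochondrial carriers of iron and of pyrimidine nucleotides, both listed at 0 in the OPCs at 6 h. Among those above 0, the phosphate transporter Slc20a1 was kept to 1.51%, 2.44% and 4.55% in OPCs and to 39.2% and 30.4% in OLs, and the neutral amino acid transporter Slc1a4 to 5.70%, 2.44% and 4.61% against 41.0% and 46.3%. Both, chosen after their values were seen, were called higher in the fit of transcripts above 0 (limma adjusted p = 0.00932 and 0.00801). In the integrated stress response list, 3 of 20 were higher and 8 lower, among them Sesn2, a sestrin, with 6.60%, 1.44% and 3.97% against 62.4% and 22.1%, and Asns, asparagine synthetase, with 40.0%, 72.4% and 110% against 57.5% and 70.8%. Aminoacyl-tRNA synthetases had 6 of 21 lower and 3 higher, with Lars, the leucine enzyme, at 96.8%, 92.0% and 111% against 46.5% and 78.4%. Histone and high mobility group transcripts had 12 of 16 lower and 0 higher (median -1.26 log2, 0.0204 on the spike-in scale), and tubulins and actins 16 of 29 lower and 1 higher (-0.79 log2, turning to 0.49), with Actr2 called.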

How the data were processed

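Labelled RNA was pulled down with streptavidin, and the authors aligned reads to GRCm38 with HISAT2 2.1.0 and tabulated FPKM with StringTie 1.3.5 and ballgown over canonical coding transcripts (GENCODE M9). The deposited FPKM were scaled by the authors to labelled spike-ins. The 0 h columns carry 6 decimals and were read as unscaled, so a later library has 1 factor relative to its 0 h, and an error in it moves all its transcripts alike on the spike-in scale. The relative share removes that factor. Read depth is unknown, so no counting error is given, and 0 FPKM is not a proof of absence. The half-life tables of each replicate were not used here. A control without biotin was not analysed here, so unlabelled background was not subtracted.

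From these values, log2 of (6 h FPKM over the replicate's median ratio, plus 1) over (0 h FPKM plus 1) was fitted with limma 3.58.1 in R 4.3.3 (cell type as the only term, variance trend on the 0 h level, Benjamini-Hochberg over 6312 transcripts, threshold 0.05). The fit was tried on simulated data for transcripts above 0 at 6 h in all 5 replicates, with the same spread in both cell types. That trial does not cover calls that rest on 0 FPKM, nor cell types of unlike spread. Medians, spreads and shares at 0 were compared by exact two-sided permutation of the 5 replicate values. Named transcripts were the 12 largest differences per direction among calls and up to 2 at each end of each of 36 gene lists, with 3 lists given freely; calls above 0 are also named beyond these, and other exceptions are stated. Some results are not reported here. Members and lists were chosen with earlier results of these data known. Features were read from GENCODE M21 (GRCm38) by transcript identifier. No columns lacked a sample. Alternatives comprised other pseudocounts, filters, scalings, times and fits, a replicate block and leaving out each replicate.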

Additional observations from a re-analysis of the deposited data

Results flagged for a closer look

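The cell types differed by limma's test of the difference for the named calls, all with an adjusted p under 0.05. For transcripts kept more in OLs and listed at 0 in the OPCs the adjusted p was 0.00724 for Schip1, Eif3g, Polr2j, Ppp1r35 and Polr1c, 0.0116 for Nsmce4a and Rgcc, 0.0192 for Lsm8 and Clcc1, 0.0217 for Fdx1, and 0.0219 for Surf1 and Rhbdd3. For these the pseudocount and the 0 h level set both the OPC value and its spread. Their p-values therefore do not measure a spread of the share kept in OPCs. For transcripts kept more in OLs and above 0, limma's adjusted p was 0.0403 for Fgfr3, 0.0424 for Sft2d1 and 0.0437 for Zswim8. Among those kept less, limma's adjusted p was 0.0373 for Set, 0.0379 for Msi2, 0.0416 for Elavl1 and Hnrnpa2b1, 0.0424 for Pbk and Pdia3, 0.0437 for Map3k12, Lmnb1, Hsp90b1, Nucks1, Hdac2, Map2 and Hnrnpu, 0.0438 for Pdia4 and Impad1, 0.0479 for Actr2 and 0.0484 for Hnrnpa3. Each of these lay outside the OPC range in both OL replicates. No group had the 4 replicates that a check for a lone outlying replicate needs.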

How the results depend on the processing

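Calls by limma, 80 as reported, depended on the setting. They became 209 with a pseudocount of 0.1 FPKM and 141 with 3 FPKM, 35 with no filter on the 0 h level, 41 with at least 20 FPKM, 334 among transcripts above 0 at 6 h, 473 on the spike-in scale, 270 for 4 h over 0 h, 24 for 6 h over 1 h and 380 with an interaction term over 10 libraries. Dividing each replicate's values by their interquartile range, an alternative added after the data were seen, gave 0 calls in limma (1201 at an unadjusted p under 0.05). The count was 88 without a variance trend, 104 with the median of the more abundant transcripts and 105 against transcripts of like 0 h level, also added later. Leaving out 1 replicate gave 0 to 131 calls, with 35 without OPC replicate 2, and 0 (1150 and 744 at an unadjusted p under 0.05) without OL replicate 1 or 2, where the lone OL library is assumed to vary like the OPCs. Of the 21 calls above 0, 18 were kept for 4 h, 13 with at least 20 FPKM, 9 without OPC replicate 1 and 0 without OPC replicate 2 or 3, without either OL replicate, with no variance trend, for 6 h over 1 h, with no filter on the 0 h level or when divided by the interquartile range. Under 4 h over 0 h the sign turned for Eif3g (-0.53), Lsm8 (-0.63), Polr2j (-0.25) and Map3k12 (0.97 log2). The causes were not tested. A fit with the replicate block gave 652 calls (536 kept more and 116 kept less), 75 of the 80 among them. It pairs replicates by number, so OPC replicate 3 has no OL partner and adds nothing to the difference. Its differences equal those without OPC replicate 3, and its larger count is not further support. Hnrnpa2b1, Hnrnpu, Impad1, Map2 and Nucks1 were not called in it (limma adjusted p from 0.0662 to 0.0736). The labels do not say whether same-numbered replicates share an origin. The correlations of their deviations, 0.012 and -0.018, cannot decide it, since with 2 OL replicates these are mirror images. The OL excess in the median share kept ranged from 18.4 to 27.1 percentage points with 1 replicate left out, the difference in interquartile range from -1.19 to -0.918 log2, and that in the share at 0 from -11.7 to -9.27 points. None of these reversed under the filters, pseudocounts, 4 h values or left-out replicates with which each was computed, and the difference in the share at 0 was -3.2 points with at least 20 FPKM. Read depth is unknown, so counting error was not assessed.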
